A study of Mus musculus with 30 samples.

Results

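The nuclear genome encodes most subunits of the 5 complexes of oxidative phosphorylation, and 46 of these subunit genes were followed here in mouse liver after carbon black had been instilled into the airways. The genes were taken from a list of subunit names, and array probes were assigned to them through the RefSeq transcript that the array files give for each probe. All 46 genes were measured, by 56 probes in all, among 12188 named genes that could be tested. Complex I contributed 21 genes, complex II 4, complex III 7, complex IV 9 and complex V 5. A single probe represented 37 of the genes, 2 probes represented 8, and 3 probes represented Atp5b. Every one of the 56 probes was well above background on all 30 arrays.

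The study asked how the liver responds when particles are placed in the lung. Female C57BL/6 mice that arrived at 5 to 6 weeks of age were compared in 2 groups, 16 controls and 14 mice that received the carbon black nanoparticle Printex 90 at 0.162 mg. The particles were sonicated in water with 0.9% NaCl and 10% cell-free lung lavage fluid from the same strain, and 40 µl was instilled and followed by 150 µl of air. The labels give the treatment of the controls as none and do not state whether they were instilled with vehicle, and they give no time between instillation and dissection. Liver RNA from each mouse (200 ng, labelled with Cy5) shared a 2-colour Agilent array with a universal mouse reference RNA (Cy3), with no dye swap. The series text speaks of 6 mice per group, whereas 30 arrays with different animal numbers were analysed. The animal numbers form 3 runs of neighbouring numbers in each group: control runs of 6, 5 and 5 mice, and exposed runs of 4, 5 and 5 mice. What these runs stand for is not stated, and they were kept apart because samples differed between them.

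Oxidative phosphorylation makes most of the ATP of a hepatocyte. Complexes I and II feed electrons from NADH and succinate into ubiquinone, complex III passes them on to cytochrome c, complex IV reduces oxygen with them, and complex V uses the proton gradient so formed to make ATP. A small set of core subunits of complexes I, III, IV and V is encoded by mitochondrial DNA, whereas the subunits studied here are imported, and complex II is encoded by nuclear genes alone. Transcription of the nuclear subunits is known to depend on factors such as nuclear respiratory factor 1 (NRF1), ETS-family proteins, YY1 and the oestrogen-related receptors (ERR).

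Promoters are shown for 4 members that were among the lowest in exposed run 1 on the loess scale, because they differ in the motifs they hold. Uqcrh and Cox5a passed the test there, whereas Cox6a1 and Atp5j did not and were chosen after their values were seen. The table has no entry for Uqcrb and Uqcrc2. Each line gives the 250 bases before the annotated start, 5′ to 3′ on the strand of the gene, from the RefSeq table for build GRCm38.p6, and capitals mark a motif match. Uqcrh lies on chromosome 4 (chr4:116075071-116075320, minus strand), Cox5a on chromosome 9 (chr9:57520982-57521231, plus strand), Cox6a1 on chromosome 5 (chr5:115348959-115349208, minus strand) and one of the starts of Atp5j on chromosome 16 (chr16:84834977-84835226, minus strand).
Uqcrh: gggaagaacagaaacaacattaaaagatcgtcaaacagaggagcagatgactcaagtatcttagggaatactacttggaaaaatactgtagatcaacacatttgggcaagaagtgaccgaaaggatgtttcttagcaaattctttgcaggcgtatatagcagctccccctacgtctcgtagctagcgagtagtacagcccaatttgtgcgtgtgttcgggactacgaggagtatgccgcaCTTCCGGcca
Cox5a: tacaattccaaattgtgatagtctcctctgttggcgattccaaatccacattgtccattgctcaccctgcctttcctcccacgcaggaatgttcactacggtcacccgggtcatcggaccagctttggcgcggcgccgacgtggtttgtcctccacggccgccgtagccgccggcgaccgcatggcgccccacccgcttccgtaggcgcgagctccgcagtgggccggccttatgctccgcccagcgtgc
Cox6a1: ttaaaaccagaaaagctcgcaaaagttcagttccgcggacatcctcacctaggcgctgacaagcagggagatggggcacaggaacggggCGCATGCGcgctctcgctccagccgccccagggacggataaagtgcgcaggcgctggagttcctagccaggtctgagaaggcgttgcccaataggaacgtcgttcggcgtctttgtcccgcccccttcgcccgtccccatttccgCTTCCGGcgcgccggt
Atp5j: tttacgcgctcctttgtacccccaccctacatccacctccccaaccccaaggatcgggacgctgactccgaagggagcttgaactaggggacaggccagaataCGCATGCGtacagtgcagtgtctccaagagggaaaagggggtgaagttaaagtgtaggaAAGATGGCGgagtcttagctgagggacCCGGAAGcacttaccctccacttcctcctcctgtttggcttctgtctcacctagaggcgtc

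The capitals in Uqcrh are an ETS match on the reverse strand. Cox6a1 holds an NRF1 match and an ETS match on the reverse strand, the stretch before Atp5j holds NRF1, YY1 and ETS matches in that order, and that before Cox5a holds none of the 4 motifs. The motifs searched, on both strands of windows of 300 bases (250 before and 50 after the start), were CGCATGCG for NRF1, CCGGAAG for ETS factors, AAGATGGCG for YY1 and TCAAGGTCA for ERR. No string contains another, and the palindromic NRF1 string was counted once per place. The table held 36 of the 46 members. The NRF1 string was found in 4 of these (11.1%) against 2.07% of 27025 genes, the ETS string in 10 (27.8% against 9.93%), the YY1 string in 4 (11.1% against 1.64%) and the ERR string in 1, Sdhd (2.78% against 0.466%). At least 1 of the strings was present in 15 of the 36 members (41.7%) and in 13.2% of all genes. These are matches of letters, and no binding was measured.

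Arrays were of similar but not equal brightness. Median Cy5 signals lay between 103 and 192, and between 42.8% and 79.2% of probes were well above background. No spot was saturated. The 30 arrays lay on 9 slides, of which 7 carried both groups. The first pair of array positions on each slide (1 and 2) always held controls and the last pair (3 and 4) exposed mice, so that position and group cannot be told apart. Exposed run 1 was at position 3 on every slide, and exposed run 3 at position 4. Defining hepatocyte transcripts were high over the reference, with a mean log2 ratio of 4.71 for Alb (albumin) and 6.88 for Apob (apolipoprotein B). In such bulk tissue, fewer cells of a type and less RNA per cell cannot be told apart.

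Most subunit transcripts were higher in liver than in the reference RNA. Levels are log2 ratios of liver over reference after loess normalisation, given as mean ± SD over all 30 animals unless a smaller n is stated. They are ratios to the same gene in the reference and do not rank the genes by abundance. The median over the 46 members was 0.59, and 43 lay above 0, against a median of -0.01 for all tested genes. Succinate dehydrogenase stood highest, with a complex II median of 1.42, followed by complex III at 1.05, complex I at 0.59, complex V at 0.41 and complex IV at 0.37. The members were also bright: 40 of 46 were in the brightest 10% of tested genes by Cy5 signal.

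**Figure D1:**
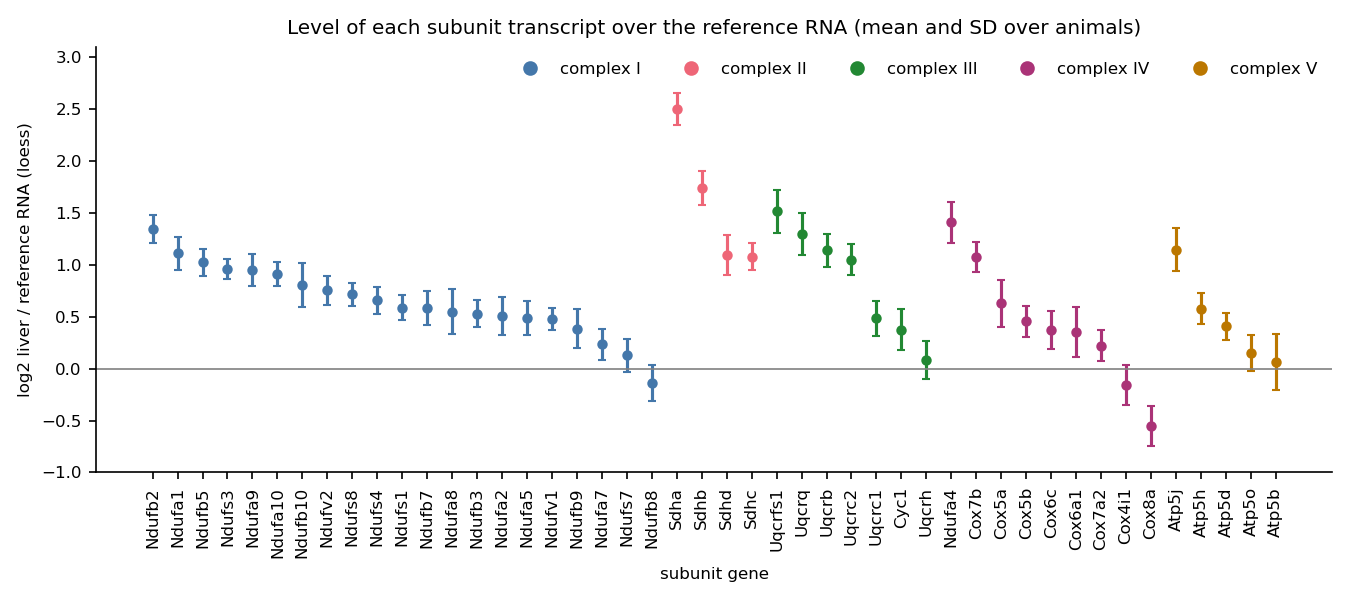
Log2 ratio of liver over reference RNA for each of the 46 subunit genes (y axis, loess scale), ordered within complexes I to V along the x axis; points are means and bars are SDs over the animals. Sdha stands highest at 2.51 and Cox8a lowest at -0.55.

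Sdha, the flavoprotein that oxidises succinate, had the highest ratio of all members at 2.51 ± 0.15, or 5.68-fold over the reference. Sdhb, the iron-sulfur subunit, followed at 1.74 ± 0.16, while the membrane anchor Sdhc was lowest in complex II at 1.08 ± 0.13. In complex I the values ran from 1.34 ± 0.14 for Ndufb2 to -0.14 ± 0.17 (n = 29) for Ndufb8, both accessory subunits of the membrane arm. In complex III they ran from 1.52 ± 0.20 for Uqcrfs1, the Rieske iron-sulfur protein, to 0.08 ± 0.18 for Uqcrh, the acidic hinge protein near cytochrome c1. In complex IV the highest was Ndufa4 at 1.41 ± 0.20, a protein first assigned to complex I and now placed with cytochrome oxidase, and the lowest was Cox8a at -0.55 ± 0.19. In complex V, Atp5j, the coupling factor 6 of the peripheral stalk, reached 1.15 ± 0.21, and Atp5b, the catalytic beta subunit, 0.06 ± 0.27 (n = 29). The spread between animals was thus smaller than the range between genes in each complex.

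Complexes II and III stood highest under all 4 scalings, while the order of complexes I, IV and V and the zero point changed with the scaling. With median centring in place of loess, the median of the members was 1.13 and all 46 lay above 0. With the processed signals that the scanner software wrote it was 0.97 and again all 46 were above 0, and in the deposited value table it was 0.37 with 40 above 0. The medians of complex II were 1.42, 1.84, 1.54 and 1.13, and those of complex III 1.05, 1.54, 1.25 and 0.76, in the order loess, median centring, processed signals and value table.

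Exposed and control livers did not differ in any of the 46 subunit transcripts at a limma adjusted p of 0.05 (Benjamini-Hochberg over all tested probes). Among all tested genes, 0.0164% were called higher and 0% lower in this comparison, so the count of members stands at the background. The members' median difference, exposed minus control, was -0.03 on the log2 scale, against -0.00 for all genes and -0.03 for the brightest 10% of other genes. With median centring the members' median was 0.01, and with the processed signals and the value table it was -0.04 and -0.03. On the loess scale, 14 of the 46 differences were above 0 and 32 below, in a range from -0.15 to 0.08. Below 0 there were also 6151 of all 12188 genes and 66.3% of the other genes of the brightest 10%. The 95% confidence interval held 0 for 45 of the 46, and the widest bounds were -0.27 and 0.21, so that on the loess scale, for the probe used for each gene, the intervals of this comparison reach no further than 1.20-fold.

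**Figure D2:**
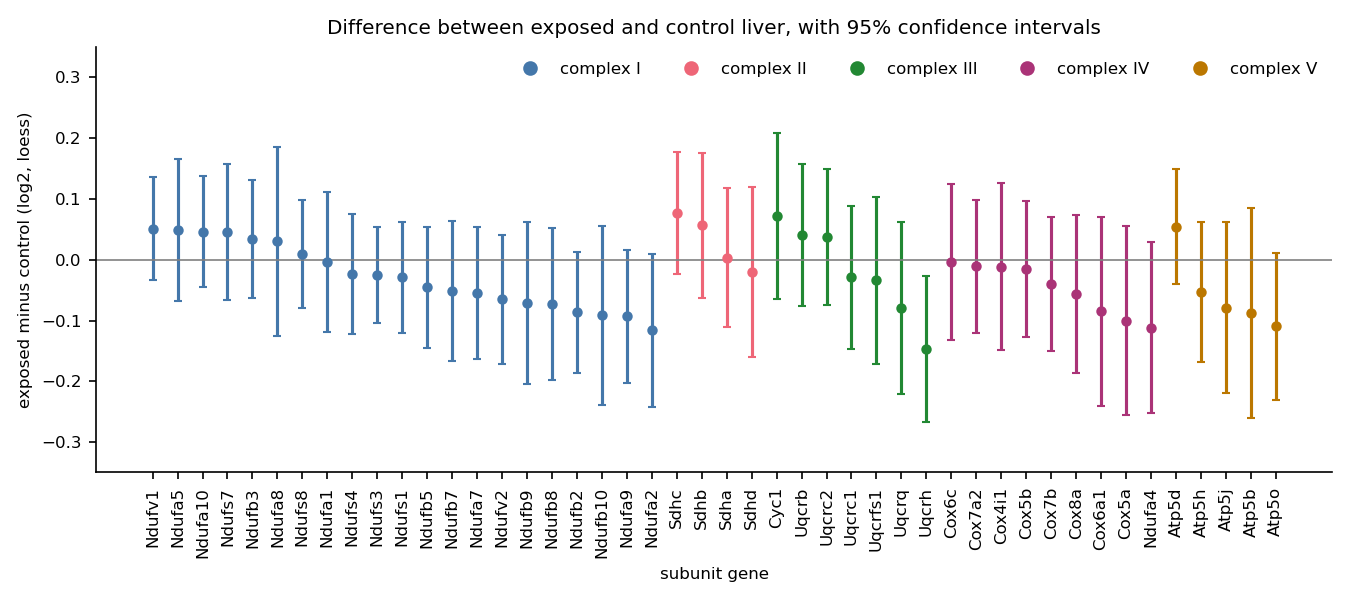
Difference between exposed (n = 14) and control (n = 16) liver for each subunit transcript (y axis, log2, loess scale), ordered within complexes along the x axis; bars are 95% confidence intervals from the limma fit. All intervals but that of Uqcrh, from -0.27 to -0.03, hold 0.

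Complex I had a median difference of -0.03, with 7 of 21 subunits above 0. Ndufv1, the flavoprotein that accepts electrons from NADH, lay between 0.30 and 0.66 in controls, with a median of 0.44, and between 0.28 and 0.61 in exposed mice, with a median of 0.51. Its difference was 0.05 ± 0.04 (SE; limma adjusted p = 0.659), the highest in the complex. Ndufa2, an accessory subunit of the NADH-oxidising arm, was the lowest: controls lay between 0.21 and 0.86 (median 0.52) and exposed mice between 0.13 and 0.72 (median 0.43). The difference was -0.12 ± 0.06 (limma adjusted p = 0.457). In both genes the 2 groups overlapped over most of their range.

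Complex II was the single complex with a median above 0 on the loess scale, at 0.03, and 3 of its 4 subunits lay above 0. With median centring the medians of complexes I, II and III were all above 0, at 0.01, 0.05 and 0.02. Sdhc ran from 0.80 to 1.25 in controls (median 1.07) and from 0.90 to 1.25 in exposed mice (median 1.17), a difference of 0.08 ± 0.05 (limma adjusted p = 0.547). Sdhd, the other membrane anchor, had a difference of -0.02 ± 0.07 (limma adjusted p = 0.942) and was more variable after exposure, from 0.56 to 1.50, than in controls, from 0.84 to 1.37; that difference in spread was not tested.

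Complex III held both the lowest difference of all members and the second highest, and its median was -0.03. Uqcrh ran from -0.16 to 0.42 in controls (median 0.12) and from -0.54 to 0.28 in exposed mice (median 0.01). The difference was -0.15 ± 0.06, and its interval excluded 0, but the limma adjusted p was 0.300. A second Uqcrh probe gave -0.16 (limma adjusted p = 0.264). Cyc1, the haem-carrying cytochrome c1, differed by 0.07 ± 0.07 (limma adjusted p = 0.716), with controls from -0.02 to 0.70 (n = 15) and exposed mice from -0.01 to 0.65.

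In complex IV all 9 subunits lay below 0, with a median of -0.04 and a range from -0.11 to -0.00. Cox6c was closest to 0 at -0.00 ± 0.06 (control n = 15) and Ndufa4 the lowest at -0.11 ± 0.07 (limma adjusted p = 0.531). Ndufa4 ran from 1.04 to 1.80 in controls and from 0.99 to 1.71 in exposed mice. Likewise 9 of 9 lay below 0 with the processed signals and the value table, but with median centring, or without exposed animal 176, it was 5 of 9. In complex V the median was -0.08 and 4 of 5 lay below 0. Atp5o, which links the peripheral stalk to the catalytic head, was lowest at -0.11 ± 0.06 (limma adjusted p = 0.463), and Atp5d, the delta subunit of the rotating central stalk, highest at 0.05 ± 0.05 (limma adjusted p = 0.685).

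The comparison was repeated for each exposed run against the mean of the control runs. These 3 comparisons share the control animals. In exposed run 1, transcripts of 2 subunits were lower than in controls and none was higher. Among all genes, 4.55% were called lower and 1.52% higher, and 2 of 46 members is close to that first share. Before any test, 42 of the 46 members lay below 0, with a median of -0.16 against -0.04 for all genes and -0.10 for the brightest 10% of other genes. An unadjusted p under 0.05 was reached by 21 of 46 members, by 2691 of all 12188 genes and by 29.4% of the 1179 other genes of the brightest 10%. Below 0 lay 7329 of all genes and 71.3% of these other bright genes. Other bright genes were thus shifted the same way on the loess scale, and their part in the result was not tested.

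The first of these 2 transcripts was Uqcrh. The 4 mice of exposed run 1 had values of -0.54, 0.02, -0.12 and -0.05, against a control median of 0.12 within a range from -0.16 to 0.42. All 4 were below the control median, but the lowest alone was below every control. The difference was -0.31 ± 0.09, or 1.24-fold lower (limma adjusted p = 0.0357), and the second probe gave -0.31 as well (limma adjusted p = 0.0365).

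The other was Cox5a, an accessory subunit on the matrix side of cytochrome oxidase. The same 4 mice had values of -0.09, 0.61, 0.44 and 0.25, and controls ran from 0.32 to 0.99 with a median of 0.72. All 4 were below the control median and 2 were below every control. The difference was -0.36 ± 0.11, or 1.28-fold lower (limma adjusted p = 0.0440).

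**Figure D3:**
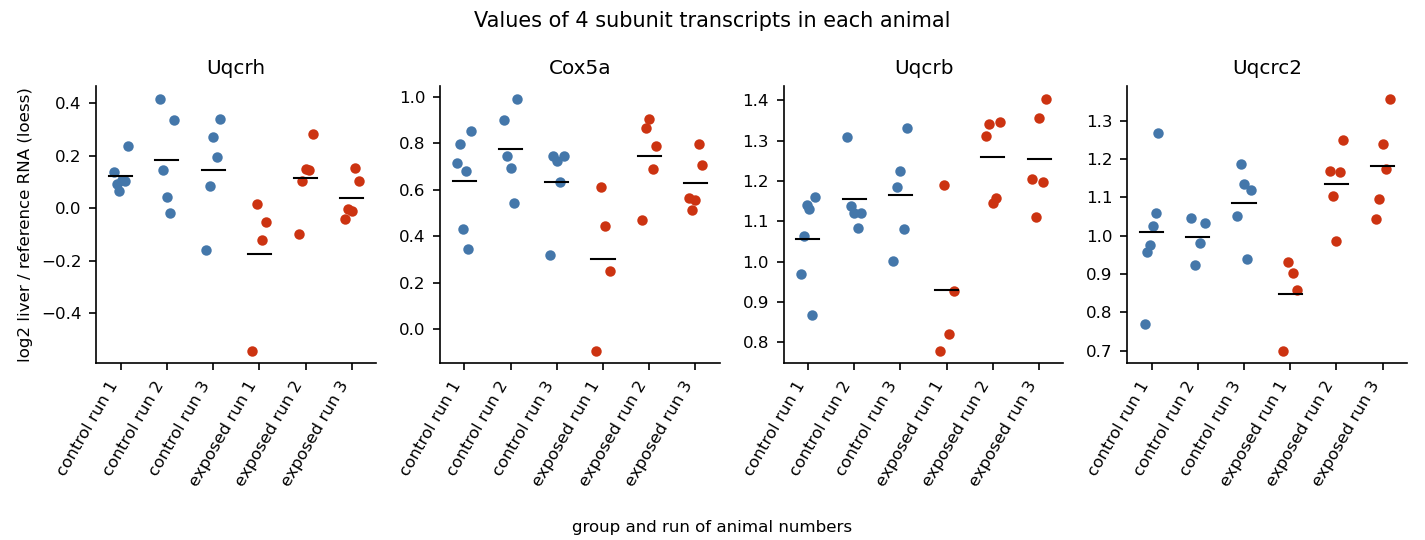
Log2 ratio of liver over reference (y axis, loess scale; each panel has its own range) for Uqcrh, Cox5a, Uqcrb and Uqcrc2 in every animal, by group and run along the x axis; lines are means. One mouse of exposed run 1 lies at -0.54 for Uqcrh and -0.09 for Cox5a, the lowest values of their panels.

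By complex, the run 1 medians were -0.11 for complex I (19 of 21 below 0), -0.08 for complex II (2 of 4), -0.19 for complex III (7 of 7), -0.16 for complex IV (9 of 9) and -0.24 for complex V (5 of 5). Complex V had the lowest single value, Atp5b at -0.38 ± 0.12, which missed the threshold (limma adjusted p = 0.0533; control n = 15). Its 2 other probes gave -0.08 and 0.03, so probes of this gene disagreed. Cox6a1, a small subunit of the oxidase, had -0.32 ± 0.11 (limma adjusted p = 0.0877) and Atp5j -0.30 ± 0.10 (limma adjusted p = 0.0771). At the other end, Sdhb had 0.05 ± 0.10 and Ndufv1 0.02 ± 0.07. The probes of Uqcrc1, a core protein of complex III, also differed in sign, at -0.08 and 0.08, without passing the test.

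The sign of the shift in run 1 depended on how the arrays were scaled. In the deposited value table, 35 of 46 members lay below 0 with a median of -0.06, and Uqcrh (-0.20, limma adjusted p = 0.0317), Cox5a (-0.26, 0.0372) and Atp5b (-0.24, 0.0395) passed. With the processed signals, 16 of 46 lay below 0 with a median of 0.05, and the single call was Ndufv1, higher by 0.22 ± 0.07 (limma adjusted p = 0.0413). With median centring, 1 of 46 lay below 0, the median was 0.19 and none passed, Uqcrh being at 0.09 and Cox5a at 0.02. The brightest 10% of other genes had medians of 0.00, 0.08 and 0.21 under these 3 scalings. The members' median minus that of these bright genes was -0.07, -0.03 and -0.02 there, and -0.06 with loess. Whether the members differ from other bright genes was not tested. The direction of the shift of the subunits as a set in run 1 thus differed between scalings of the same arrays.

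**Figure D4:**
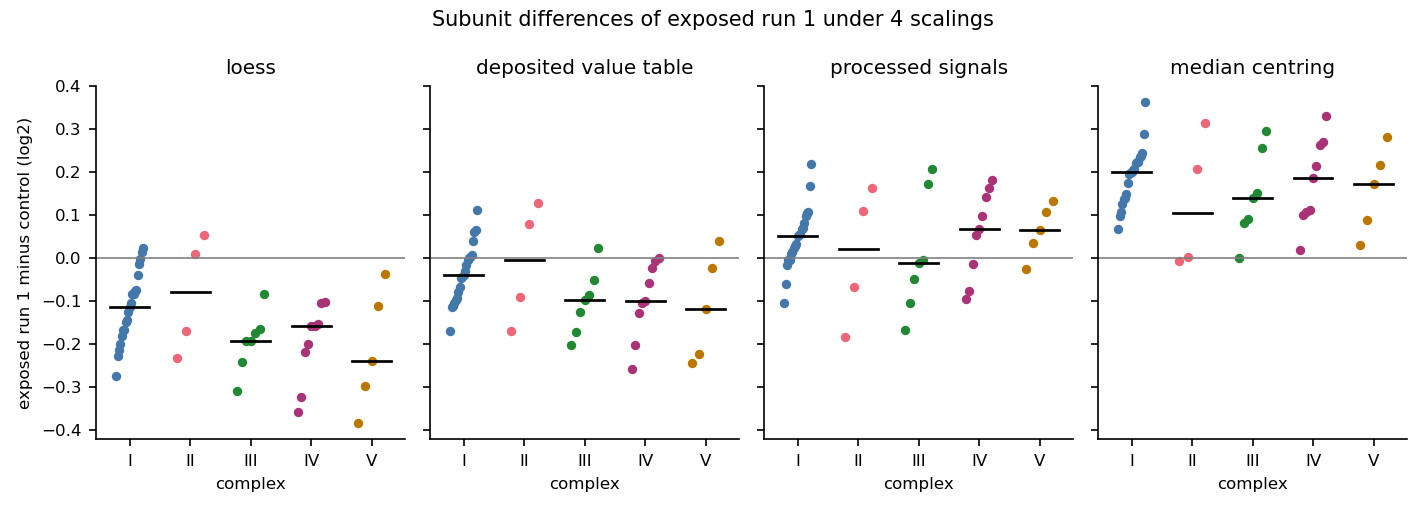
Difference of exposed run 1 (n = 4) from the mean of the control runs for each subunit transcript (y axis, log2) by complex (x axis), in 1 panel per scaling; lines are the medians of a complex. The medians of the members are -0.16, -0.06, 0.05 and 0.19 from left to right, so that the cloud crosses 0.

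Some members kept their place in the order of the 46 under every scaling and others did not. Atp5j, Cox5a, Sdhd and Uqcrfs1 were among the 10 lowest members under all 4 scalings, and Atp5d, Ndufv1 and Sdhb among the 10 highest. Relative to the median of the members, Cox5a lay at -0.20, -0.17, -0.15 and -0.20 with loess, median centring, processed signals and value table, and Ndufv1 at 0.18, 0.17, 0.17 and 0.17. In contrast, counting from the lowest, Atp5b was at rank 1 with loess and 22 with the processed signals, Cox6a1 at 3 and 29, Uqcrq at 16 and 45, and Uqcrh at 4 and 13. Over the 46 members, the loess difference in run 1 fell with Cy5 brightness (Pearson's r = -0.67, Spearman's rho = -0.70), also without animal 176 (r = -0.50). In the value table r was -0.54, with median centring -0.13 and with the processed signals 0.17. These are correlations across genes that share arrays and probes of similar brightness, and carry no test.

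One animal weighed heavily in run 1. For each mouse, the median deviation of the 46 members from the control mean was taken. In exposed run 1 it was -0.43 in animal 176 and 0.03, -0.11 and -0.15 in the other 3, against 0.04 ± 0.07 (SD, n = 5) in exposed run 2 and -0.01 ± 0.05 (n = 5) in exposed run 3. In the control runs it was -0.01 ± 0.09 (n = 6), 0.04 ± 0.14 (n = 5) and -0.01 ± 0.12 (n = 5). Animal 176 was thus the lowest of all 30 with loess, but with median centring it was the highest, at 0.85, and its processed signals and value table gave 0.17 and -0.09. Other bright genes of that animal stood at -0.39, 0.83, 0.22 and -0.04 in the order loess, median centring, processed signals and value table. Without animal 176 no member passed in run 1: the median was -0.05 with 35 of 46 below 0, Uqcrh had -0.17 (limma adjusted p = 0.322) and Cox5a -0.21 (0.336). The median of the other bright genes was then 0.01.

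**Figure D5:**
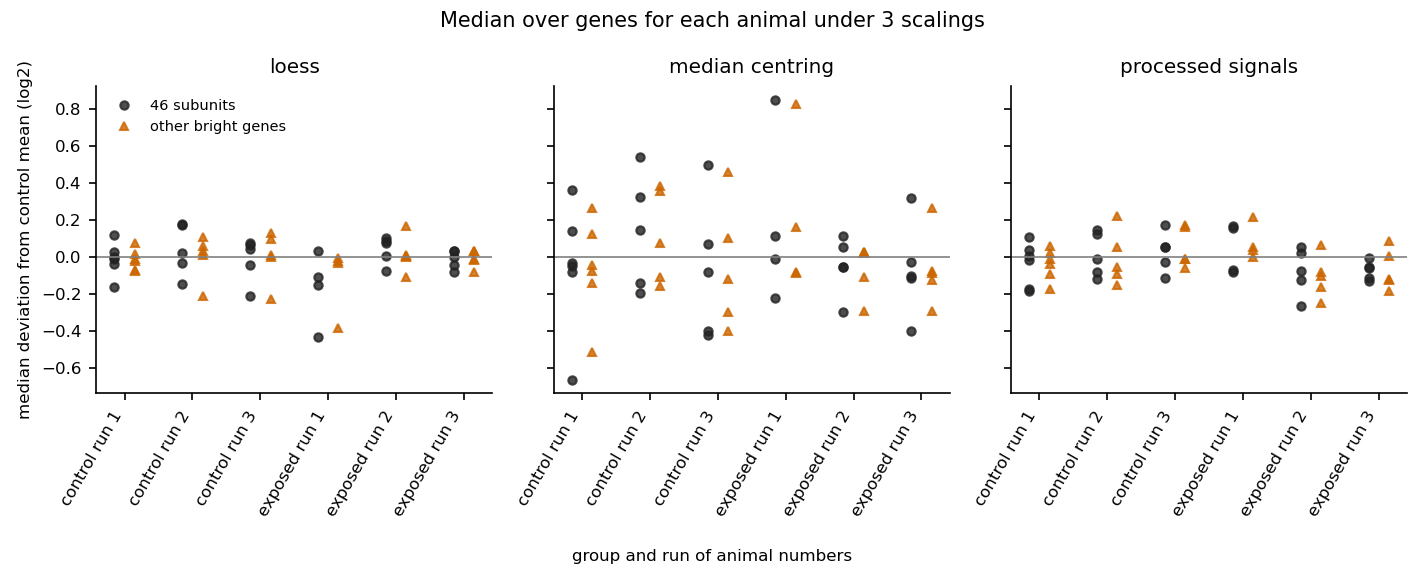
Median deviation from the control mean (y axis, log2) over the 46 subunits (circles) and over the other genes of the brightest 10% (triangles), 1 point per animal, by group and run along the x axis and in 1 panel per scaling. Animal 176 of exposed run 1 has a subunit median of -0.43 with loess and 0.85 with median centring, and its other bright genes lie close by.

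With slide as a fixed block, Uqcrh had -0.27 (limma adjusted p = 0.154) and Cox5a -0.31 (0.199), and neither passed. The Cox5a call was lost in 16 of the 30 fits that left out 1 animal, with limma adjusted p between 0.0504 and 0.336; the animals were controls 547, 548, 550, 552, 570, 573, 575, 596, 598, 599 and 600 and exposed animals 176, 180, 196, 212 and 214. The Uqcrh call was lost in 5, with controls 575, 599 and 600 and exposed animals 176 and 179 (0.0508 to 0.322).

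Differences among the 3 exposed runs were then tested with limma's moderated F test. Of the 46 members 2 differed between runs, both of complex III, where 5.2% of all genes did. For 44 of the 46 members run 2 lay above run 1, with a median step of 0.20, and for 43 run 3 lay above run 1, with a median step of 0.15. The share of all genes that stepped the same way is not given here. These steps share run 1 with the comparison above and are given on the loess scale. On that scale the median of all genes against controls was -0.04, 0.03 and 0.00 in runs 1 to 3. The members' medians against controls in runs 1 to 3 were -0.06, -0.004 and -0.04 in the value table. With median centring they were 0.19, -0.03 and -0.09, and with the processed signals 0.05, -0.07 and -0.08. Run 1 was thus the highest run under the last 2 scalings.

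Uqcrb, a small subunit at the ubiquinone-binding side of complex III, had values of 0.78, 1.19, 0.82 and 0.93 in run 1 (mean 0.93 ± 0.18). Run 2 averaged 1.26 ± 0.10 (n = 5) and run 3 1.25 ± 0.12 (n = 5), while controls ran from 0.87 to 1.33 with a median of 1.13. One mouse of run 1 overlapped the other runs. Run 2 exceeded run 1 by 0.33 and run 3 by 0.32 (F = 9.02, limma adjusted p = 0.0319).

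Uqcrc2, a core protein of the matrix side of complex III, had 0.70, 0.93, 0.90 and 0.86 in run 1 (mean 0.85 ± 0.10). Run 2 averaged 1.13 ± 0.10 and run 3 1.18 ± 0.12, and all 10 of those mice were above the 4 of run 1. Controls ran from 0.77 to 1.27 (n = 15, 1 spot being left out). Run 2 exceeded run 1 by 0.26 and run 3 by 0.32 (F = 8.33, limma adjusted p = 0.0420). Next in order, without passing, were Cyc1 (limma adjusted p = 0.0544) and Sdha (0.0678). For Sdha, run 2 exceeded run 1 by 0.20 and run 3 by 0.30. A second Sdha probe gave 0.06 and 0.24 (limma adjusted p = 0.260).

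Neither Uqcrb nor Uqcrc2 passed with median centring, the processed signals or the value table, or without animal 176 (limma adjusted p = 0.180 and 0.224). Leaving out exposed animals 179, 180 or 214 also ended the Uqcrb call (lowest limma adjusted p = 0.0553 over the 4 animals), and leaving out control 550 or exposed animals 177, 179, 180, 196, 197, 214, 215 or 216 ended that of Uqcrc2 (lowest 0.0514). With a term for the first or last position of a group's pair of arrays, no member passed in run 1 or among the exposed runs. Exposed run 1 was always first and run 3 always last, so this term overlaps with run; the run 1 differences were then -0.29 for Uqcrh (limma adjusted p = 0.194) and -0.33 for Cox5a (0.238). With slide as a fixed block in place of a random one, Uqcrb (limma adjusted p = 0.180) and Uqcrc2 (0.247) did not pass either.

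In the other exposed runs no member passed. In run 2 the median difference was 0.04 (all genes 0.03), with 0.0082% of all genes called higher and 0% lower. Above 0 lay 31 of 46 members and 7515 of all 12188 genes. The highest was Cyc1 at 0.16 ± 0.07 (limma adjusted p = 0.441). In run 3 the median was -0.01 (all genes 0.00), with 0.115% of genes called higher and 0.0246% lower. All 4 subunits of complex II lay above 0 in run 3, with a median of 0.11, but the highest of them, Sdha at 0.13 ± 0.06, missed the threshold (limma adjusted p = 0.366). Ndufa2 was the lowest member in run 3 at -0.17 ± 0.08 (limma adjusted p = 0.381).

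Among the 3 control runs no member differed either, where 0.107% of all genes did. An unadjusted p under 0.05 was reached by 928 of all 12188 genes and by 3 of the 46 members. The 3 members were Ndufa10, Sdha and Cyc1. For Cyc1, control run 2 lay 0.18 and control run 3 0.24 above control run 1 (F = 4.11, limma adjusted p = 0.661).

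The subunits varied together from mouse to mouse, within and between complexes alike. Over the 30 animals, the median Pearson correlation was 0.53 for the 1035 pairs of members, 0.52 for pairs in the same complex and 0.53 for pairs in different complexes. Within complexes it was 0.66 in IV, 0.60 in V, 0.51 in I, 0.48 in III and 0.32 in II, the last over 6 pairs. The median over all pairs of tested genes was 0.05, and over pairs of other bright genes 0.23. With the means of runs and slides removed, the members' median was 0.64 and that of the other bright genes 0.43. These values depended on scaling: for the members they were 0.88, 0.37 and 0.25 with median centring, processed signals and value table, and for other bright genes 0.61, 0.21 and 0.07. All pairs share the same arrays, so the correlations describe these arrays and carry no test.

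The median share of a member's variance between slides (9 levels) was 31.3% (37.1% for all genes). It was 2.91% (2.36%) between groups (2 levels) and 25.0% (22.2%) for group together with run (6 levels). Such a share grows with the number of levels even where a factor has no effect. The shares were not corrected for this or tested, so they do not rank the factors. The SD within a run was 0.152 for the median member and 0.175 for the median gene. The reference RNA was the same on every array. Its Cy3 values were taken after loess normalisation, whose curve is fitted to both dyes, so they are not independent of the liver signal. In this reference channel no member and none of the 12188 genes passed between the groups. The median difference was 0.12 for the members and 0.09 for all genes, and this channel was not scaled between arrays. An unadjusted p under 0.05 was reached by 20 of 46 members, and the share of all genes that reached it was not computed. In run 1 the members' median in this channel was 0.13 (all genes 0.05) and 1 member had an unadjusted p under 0.05.

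In the pooled comparison none of 28 further subunits, 34 assembly factors, 20 regulators of mitochondrial biogenesis, 14 enzymes of the citric acid cycle, 13 genes of ubiquinone and other electron carriers, 8 carriers and uncouplers or 3 tissue-specific isoforms passed. On the loess scale the medians of the electron carrier list (0.01, 8 of 13 above 0) and of the carriers and uncouplers (0.01, 4 of 8 above 0) lay above 0. The members and the other bright genes had -0.03 there, and the members had 0.01 with median centring. Whether these lists differ from the members was not tested. In exposed run 1, where 4.55% of all genes were called lower and 1.52% higher, these lists gave 2 lower subunits, 1 higher and 3 lower assembly factors, 1 higher and 1 lower regulator, 1 lower cycle enzyme and 1 lower isoform, and no call among the electron carriers or the carriers and uncouplers, all on the loess scale. The further subunits were Ndufa13 (-0.35, limma adjusted p = 0.0467) and Ndufab1 (-0.21, 0.0436), and their list had a median of -0.15, close to the members. The assembly factors were Coa3 (-0.36), Cox14 (-0.34) and Uqcc2 (-0.34), which serve complexes IV and III, and Foxred1 (0.22), which serves complex I. Polg2, the accessory subunit of the mitochondrial DNA polymerase, was higher by 0.32 and Polrmt, the mitochondrial RNA polymerase, was at -0.28. Citrate synthase (Cs) was at -0.49 (limma adjusted p = 0.00628). Cox7a1, the heart and muscle isoform of a complex IV subunit, was at -0.74 (limma adjusted p = 0.00206), while the liver isoform Cox7a2 was at -0.20 (limma adjusted p = 0.111). The fits were repeated under the other scalings after the data had been seen, and the genes that passed with loess were followed. Chosen this way, they cannot be set against the members for how far they depend on scaling. Genes that passed only under another scaling are not named. Among them were 1 higher carrier or uncoupler with the processed signals and 1 higher electron carrier gene in the value table. Cox7a1, Foxred1 and Polg2 passed with loess, the processed signals and the value table and also with loess without animal 176, where Cox7a1 was at -0.71 (limma adjusted p = 0.0143), Foxred1 at 0.26 (0.0344) and Polg2 at 0.34 (0.0284). With median centring they kept their direction, at -0.65, 0.41 and 0.47, but did not pass (0.120, 0.357 and 0.280). Cs lay below 0 under all 4 scalings and passed under 3 of them, the exception being median centring (-0.25, limma adjusted p = 0.744), and it did not pass without animal 176 (-0.38, 0.0630). The 2 further subunits turned above 0 with median centring, Ndufa13 to 0.05 and Ndufab1 to 0.04, and so did the median of their list, at 0.17. Coa3, Cox14, Uqcc2 and Polrmt lay below 0 under all 4 scalings and passed in the value table (limma adjusted p = 0.0147, 0.00742, 0.0121 and 0.0200). With the processed signals Uqcc2 (0.0362) and Polrmt (0.00577) passed, and none of the 4 passed with median centring or without animal 176. Transcripts encoded by mitochondrial DNA were not analysed here.

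Markers of other liver cells also differed in exposed run 1, for some lists in a direction that changed with the scaling. On the loess scale, 6 of 8 stellate cell markers were below 0 and 3 passed, Col3a1 (-0.98), Col1a1 (-0.61) and Pdgfrb (-0.44), and their mean level per animal was -1.22 ± 0.45 against -0.80 ± 0.17, -0.79 ± 0.16 and -0.99 ± 0.27 in the control runs. All 8 endothelial markers were below 0 and none passed, with a mean level of 2.61 ± 0.41 against 2.89 to 3.03 in the control runs. Of 10 hepatocyte markers 6 were below 0 and 1 passed, Ttr, which encodes transthyretin (-1.14), while their mean level of 5.42 ± 0.10 lay between the control runs' 5.39 and 5.70. Of 6 cholangiocyte markers, 6 were below 0 and Spp1 passed (-0.59). Of 9 macrophage markers 8 were below 0, with a mean level of 3.15 ± 0.28 against 3.33 to 3.52 in the control runs. All 7 lymphocyte markers were below 0, and on the loess scale none passed in either list. Of 3 neutrophil markers 2 were above 0 and none passed. With the processed signals the counts below 0 were 3 of 9 for macrophage, 4 of 8 for endothelial and 0 of 10 for hepatocyte markers. For hepatocyte markers 2 of 10 lay below 0 with median centring and in the value table. Median centring and the value table gave 8 and 5 of 9 macrophage markers, and 8 and 6 of 8 endothelial markers, below 0. Under all 4 scalings 6 of 8 stellate, 6 of 6 cholangiocyte and at least 6 of 7 lymphocyte markers were below 0. The 3 stellate markers also passed with the processed signals, with Col3a1 at -1.03, Col1a1 at -0.72 and Pdgfrb at -0.47, and in the value table, and lay at -0.80, -0.46 and -0.29 with median centring without passing. Ttr passed with median centring (-1.12) and in the value table (-0.81), and with the processed signals it lay above 0 (0.58, limma adjusted p = 0.109). Of the lymphocyte markers, 2 passed as lower with the processed signals and 1 in the value table. Of the macrophage markers, 1 passed as lower in the value table. Without animal 176 no marker of these lists passed. The part of these shifts in the values of the subunits was not tested.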

How the data were processed

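The deposited scanner files give, per the file headers, Agilent Feature Extraction intensity signals of both dyes (version 10.7.3.1 on 25 arrays, 10.1.1.1 on 5 arrays of 2 slides). They also hold, per the file headers, a processed signal intensity for each dye and a log10 ratio. The log10 ratio was used to check the value table that the authors deposited, which holds log2 ratios of liver over reference. Each of its 30 columns correlated best with the log10 ratio of its own array (r = 0.980 to 0.993). This was taken over 15470 spots well above background in both dyes on every array. Column medians of the value table ran from -0.045 to -0.021. How the authors normalised it is not given in the sources used here.

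With limma 3.58.1 in R 4.3.3 (package data.table, version 1.17.8), both dyes were background-corrected (normexp, offset 50) and loess-normalised within arrays with control spots given no weight. Outlier spots were set to missing and spots of a probe averaged. The 23607 of 41174 probes well above background in Cy5 on at least 14 arrays were tested, and a gene was represented by its probe with the highest mean Cy5. Linear models used slide as a random block (correlation 0.159 for 2 groups, 0.147 for 6 runs), with Benjamini-Hochberg adjustment at 0.05. Replicates are animals, and their number limits the precision. Runs were split where animal numbers of a group left a gap above 10. Scripts were tested on simulated data.

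Genes named are members past 0.05 in any comparison, each complex's highest and lowest difference and level, members whose probes differed in sign, and up to 3 passing genes of each other list; Atp5b, Atp5j, Cox6a1, Cox7a2, Ndufa10, Sdhb and the highest or lowest member of a run were added after their values were seen. The members and all lists were chosen with earlier results of these data known. Alternatives were 3 other scalings, background correction, slide block, array weights, filters, probe choice, software version, array position, runs and each animal left out.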

Additional observations from a re-analysis of the deposited data

Results flagged for a closer look

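Within the runs, 132 sets of values of members were examined for an animal far from the rest, and 5 were found; chance alone marks about 1 in 20 such sets. Animal 595 of control run 3 was lowest for Ndufa2 at 0.21, with the other 4 mice of that run between 0.45 and 0.50, and also for Cox5a at 0.32, with the others between 0.63 and 0.74. Animal 215 of exposed run 3 was highest for Sdhd at 1.50, and the nearest mouse was at 1.14. Animal 552 of control run 1 was highest for Cox6a1 at 0.78, and the nearest was at 0.44. Animal 570 of control run 2 was highest for Uqcrb at 1.31, and the nearest was at 1.14. All are log2 ratios of liver over reference on the loess scale. Animal 176 of exposed run 1 was not marked in any set.

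A difference between runs of the exposed group was found by limma's F test for Uqcrb (limma adjusted p = 0.0319) and Uqcrc2 (limma adjusted p = 0.0420), with run 1 lowest in both.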

How the results depend on the processing

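In the pooled comparison no member passed in any of 43 alternatives, and the median difference of the members stayed between -0.04 and 0.01. The counts in exposed runs 2 and 3 (45 alternatives each) and among the control runs (42) were likewise 0 throughout. The 2 calls among exposed runs fell to 0 with median centring, the processed signals, the value table, no background correction, slide as a fixed block, the arrays of the newer software version alone and array position as a term, and leaving out 1 animal gave 0 to 3. The 2 calls in exposed run 1 fell to 0 with median centring, a fixed slide block and array position, and to 1 with no filter (Uqcrh) and with the newer version alone (Atp5b). The processed signals gave 1 call in the opposite direction (Ndufv1). Against 1 control run alone, a choice made after seeing the data, they were 0 (run 1), 1 (run 2, Cox5a) and 0 (run 3), and leaving out 1 animal gave 0 to 5. With median centring, Uqcrh turned to 0.091 and Cox5a to 0.019 in run 1, and the run 1 medians became 0.19 for all members and 0.20, 0.10, 0.14, 0.19 and 0.17 for complexes I to V. With the processed signals they became 0.052 for all members, -0.013 for complex III, 0.068 for complex IV and 0.065 for complex V. The members' median in run 2 became -0.070 with the processed signals, and in run 3 -0.087 with median centring and -0.083 with the processed signals. The cause of these changes was not tested.

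Median levels over the reference were 1.13, 0.97 and 0.37 for all members with median centring, processed signals and value table, 1.06, 0.85 and 0.35 for complex I, 1.54, 1.25 and 0.76 for complex III and 1.02, 0.94 and 0.12 for complex V. For complex II they were 1.84 with median centring and 1.13 in the value table, and for complex IV 1.20 and 1.03 with median centring and processed signals. The median correlation between members became 0.88, 0.37 and 0.25, over scalings added after seeing the data. No paired analysis was possible because replicate numbers are animal numbers, and none is shared between groups. Setting saturated spots to missing was not run, since no spot was saturated.

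Limits are the 4 animals of exposed run 1, positions on the slide that cannot be told apart from group, unstated control treatment and runs, a single dye orientation, and bright members whose sign follows the scaling.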
